A study of Homo sapiens with 10 samples.

Results

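The nuclear genome encodes most subunits of the mitochondrial respiratory chain, and 74 of these genes were followed here through RNA-sequencing of HAP1 cells. They were picked by symbol out of the 59453 gene rows that both deposited count tables hold, as subunit genes of complexes I to V, with 37 genes of complex I, 4 of complex II, 8 of complex III, 10 of complex IV and 15 of complex V. The rule used symbols and no measured value, but it was set with earlier results of these data known. NDUFA4, which bears a complex I name, is now regarded as a complex IV subunit and was kept with complex I as its symbol says.

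HAP1 is a near-haploid human line derived from the leukemia line KBM-7, grown here under atmospheric oxygen. The study compared WT cells with cells that lack MUTYH (MUTYH-/), OGG1 (OGG1-/) or both DNA glycosylases (DKO), made by CRISPR-Cas9 insertions or deletions, to ask how loss of 8-oxoguanine repair bears on gene expression. OGG1 removes 8-oxoguanine from DNA, and MUTYH removes adenine that was paired with it. Each genotype was represented by 2 clones and each library by 1 clone: WT clones 11 and 2, MUTYH-/ clones 7 and 8, OGG1-/ clones 1 and 22, and DKO clones 4 and 14. Both DKO clones were made from the same OGG1-/ clone. The product number that the paper lists for this parent ends in 22, as does the label of OGG1-/ clone 22. If these are the same, OGG1-/ and DKO are not independent groups of clones. The WT clones were sequenced again after 24 h in 100 µM H2O2, which gives 10 libraries in all. The paper describes adding the antioxidants butylated hydroxytoluene and deferoxamine during nucleic acid isolation against DNA oxidation. It does not say whether every RNA isolation had them. With 1 library per clone and condition, P-values cover only the spread between libraries of different clones. Within that spread, clone, culture and library preparation cannot be told apart.

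Total counts lay between 22225091 and 22674964 per library, and the 74 genes together took 0.646% to 0.927% of them. All 74 passed the filter on low counts in the fit of the untreated libraries, which tested 17881 genes, and in the fit of the WT libraries, which tested 16997. The defining markers of mature blood cells were at or near 0, with at most 3 counts of PTPRC, 1 of SPI1, 7 of ITGAM and 11 of CD33 in any library, while CD34 had 3 to 23 counts and KIT 44 to 418. OGG1 had 27 counts in OGG1-/ clone 1 and 254 in OGG1-/ clone 22, against 275 to 331 in the WT (treated included) and MUTYH-/ libraries and 215 and 223 in the DKO, and MUTYH had 50 to 119 counts throughout, so transcript level does not mark these deletions except in OGG1-/ clone 1.

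As background, complexes I and II pass electrons from NADH and succinate to ubiquinone, complex III passes them on to cytochrome c, and complex IV hands them to oxygen. Complexes I, III and IV pump protons, and complex V uses the gradient to make ATP. Complexes I, III, IV and V mix nuclear subunits with subunits encoded by mitochondrial DNA, whereas complex II is wholly nuclear. The factors NRF1, GABPA of the ETS family, YY1 and CREB are known to act at promoters of many nuclear subunit genes.

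Promoters were searched for the core motifs of these factors in RefSeq windows from 250 bases before to 50 after each gene's start (GRCh38.p14), which the reference held for 61 of the 74 genes. The NRF1 core GCGCATGCG, on either strand, was in 10 of 61 windows (16.4%) against 2.1% of all 27305 promoter windows. The ETS core CCGGAAG was in 19 (31.1% against 10.7%), the YY1 core AAGATGGCG in 8 (13.1% against 1.85%) and the CRE core TGACGTCA in 5 (8.2% against 1.98%). At least 1 of the 4 was in 33 windows (54.1% against 15.2%). The NRF1 core overlaps itself on the opposite strand, so that a stretch with both is 1 longer site. A match is a description of the letters and not of binding. By complex, the ETS core was in 5 windows of complex I, 2 of complex II, 3 of complex III, 5 of complex IV and 4 of complex V, and the NRF1 core in 4, 1, 0, 1 and 4.

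The windows of 4 genes are shown, with matches in capitals. Of these, 3 were picked, after their values were seen, by the difference between clones described further on. ATP5PF was picked because its window held 3 of the 4 motifs. NDUFB3 and NDUFV1 also stood near the ends of that difference, and their windows, not shown, held no match. COX7C, an accessory subunit of complex IV, had the highest mean difference over the 4 genotypes and no match (chromosome 5, 86617691 to 86617990, plus strand). NDUFB4, an accessory subunit in the membrane arm of complex I, had the highest value when each gene's smallest difference over the 4 genotypes was ranked (0.71 log2 CPM). It held the NRF1 core on both strands (chromosome 3, 120596086 to 120596385, plus strand). ATP5PF, coupling factor 6 of ATP synthase, held the NRF1, YY1 and ETS cores (chromosome 21, 25735005 to 25735304, minus strand). COX6A1, the widely expressed form of complex IV subunit 6A, was the only gene that ran the other way between clones in all 4 genotypes, though only slightly in WT and DKO. It held the NRF1 and ETS cores (chromosome 12, 120437863 to 120438162, plus strand).
COX7C: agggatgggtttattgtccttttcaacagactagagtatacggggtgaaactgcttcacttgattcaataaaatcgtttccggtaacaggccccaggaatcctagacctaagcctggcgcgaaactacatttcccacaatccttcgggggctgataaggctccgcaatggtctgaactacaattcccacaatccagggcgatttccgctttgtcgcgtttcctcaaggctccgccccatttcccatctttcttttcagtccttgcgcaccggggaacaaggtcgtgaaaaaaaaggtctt
NDUFB4: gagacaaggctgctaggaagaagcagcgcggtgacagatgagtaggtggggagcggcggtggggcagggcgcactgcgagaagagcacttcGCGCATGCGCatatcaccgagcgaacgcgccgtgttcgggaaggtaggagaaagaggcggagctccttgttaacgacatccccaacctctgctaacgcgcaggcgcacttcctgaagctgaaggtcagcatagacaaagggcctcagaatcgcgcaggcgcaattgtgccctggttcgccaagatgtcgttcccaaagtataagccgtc
ATP5PF: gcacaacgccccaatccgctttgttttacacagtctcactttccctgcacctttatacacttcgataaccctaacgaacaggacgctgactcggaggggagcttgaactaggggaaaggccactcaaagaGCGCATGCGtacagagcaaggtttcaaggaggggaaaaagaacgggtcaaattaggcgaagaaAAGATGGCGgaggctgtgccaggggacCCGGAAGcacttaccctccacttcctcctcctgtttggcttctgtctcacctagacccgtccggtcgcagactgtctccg
COX6A1: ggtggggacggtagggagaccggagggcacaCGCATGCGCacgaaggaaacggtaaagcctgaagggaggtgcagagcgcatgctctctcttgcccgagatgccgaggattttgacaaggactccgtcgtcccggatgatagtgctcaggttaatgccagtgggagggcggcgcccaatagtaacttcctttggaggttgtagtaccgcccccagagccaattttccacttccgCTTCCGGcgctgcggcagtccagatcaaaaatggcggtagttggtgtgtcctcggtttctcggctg

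Levels per length were set beside each other as CPM per kilobase, with each gene's length taken as the median of its coding transcripts. Over the 8 untreated libraries the median gene of complex I stood at 57.2, that of complex II at 86.8, of complex III at 104, of complex V at 138 and of complex IV at 191. The ranges within a complex were far wider than the steps between them, from 2.88 to 232 in complex I and from 32.8 to 537 in complex V. The order of these medians depended on the length used. With canonical transcripts, a choice made after seeing the data, the median of complex III fell below those of complexes I and II. UQCRB then went from 185 to 14.1 and UQCRQ from 93.7 to 34.9, and no gene of complex III rose. In summed CPM, which does not correct for length, complex V took 38.2% of the counts of the 74 genes, complex I 29.1%, complex IV 17.4%, complex III 11.5% and complex II 3.72%.

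The highest level per length belonged to ATP5F1B, the catalytic beta subunit of ATP synthase, at 537 with a range of 470 to 596 over the 8 libraries. COX5A of complex IV followed at 478, ranging from 376 to 614, so that these genes overlapped across libraries. UQCRH, the hinge protein of complex III, led its complex at 241, NDUFB11 of the membrane arm led complex I at 232 and SDHC, a membrane anchor, led complex II at 195. These values depend on the length used: with the canonical transcript, a choice made after seeing the data, COX5A came to 234 and SDHC to 68.4, while ATP5F1B stayed at 537.

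The 3 genes of the membrane c subunit of ATP synthase, ATP5MC1, ATP5MC2 and ATP5MC3, encode the same mature protein. ATP5MC3 at 219 and ATP5MC2 at 215 did not differ beyond their spread over libraries (174 to 267 and 157 to 279), and ATP5MC1 stood at 152 (129 to 178). With canonical lengths the order was ATP5MC2 at 324, ATP5MC1 at 127 and ATP5MC3 at 71.2. ATP5MC1 had 69.6 to 95.9 CPM, ATP5MC2 150 to 266 and ATP5MC3 147 to 225.

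The lowest levels in complexes I and II were uncertain because of how reads can be shared. NDUFV2, a core subunit with an iron-sulfur cluster, had 39 to 86 counts per untreated library while its pseudogene row had 41 to 80, and 89.96% of its exon length lies within another annotated gene on the same strand. SDHA, the flavoprotein of complex II, had 617 to 733 counts against 1498 to 2161 in its 3 pseudogene rows, with 69.4% of its exon length shared in the same way. In all 7 of the 74 genes, NDUFV2, NDUFA13, NDUFA7, NDUFB8, SDHA, NDUFA11 and ATP5PO, shared over 50% of exon length with a gene on the same strand. Pseudogene rows existed for 47 genes and took more than 5% of the joint count in 4, which besides SDHA and NDUFV2 were UQCRFS1, at 8.79% to 9.70%, and COX6A1, at 7.13% to 9.13%. ATP5PO, which LINC00649 overlaps on the opposite strand, had 26.3 to 47.4 CPM.

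No respiratory chain gene passed the study's rule for a differentially expressed gene (DEG), P of at most 0.05 with a log2 fold change beyond 1, in any comparison between genotypes. None had an adjusted p of at most 0.05 by edgeR's quasi-likelihood test, and none reached an unadjusted P of 0.05, with 0 also by DESeq2. Across all genes tested the study's rule called 1.19% in MUTYH-/ against WT, 1.67% in OGG1-/ against WT and 1.77% in DKO against WT, and unadjusted P called 1.72%, 2.74% and 2.94%. Between knockouts unadjusted P called 2.62% of all genes in DKO against OGG1-/, 3.43% in DKO against MUTYH-/ and 2.53% in OGG1-/ against MUTYH-/, and 2.62% for the interaction of both losses. These shares are by edgeR. By DESeq2 unadjusted P called 1.78%, 2.84% and 2.64% against WT, then 2.49%, 3.24%, 2.38% and 2.69%, in the same order. The fold changes of the 74 genes stayed within -0.50 and 0.31 on the log2 scale against WT. In bulk RNA, fewer cells with a transcript and less of it per cell cannot be told apart.

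**Figure D1:**
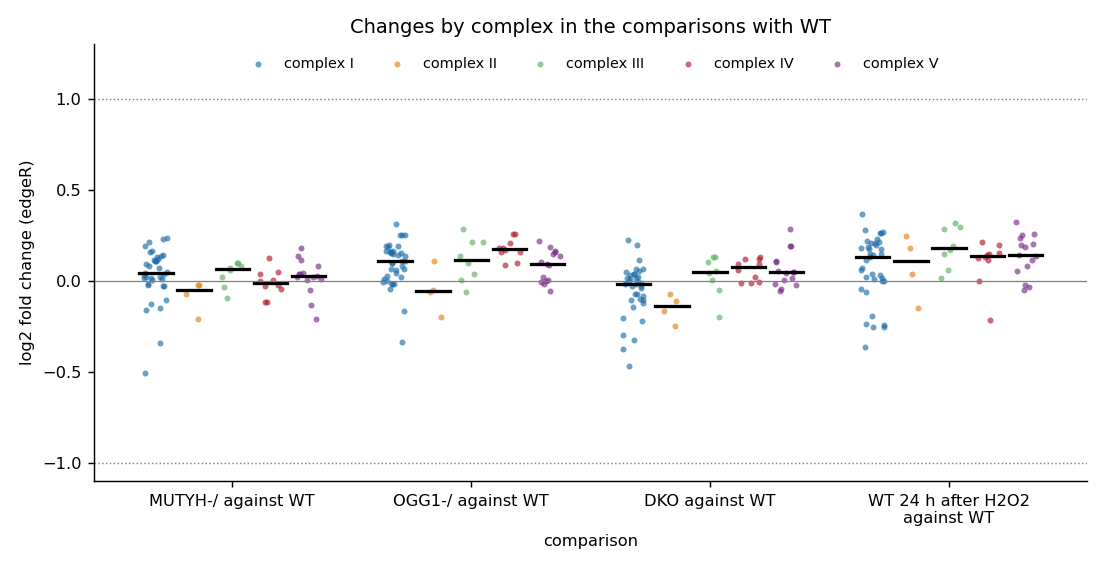
Log2 fold changes of the 74 genes, 1 point per gene, in the 4 comparisons with WT, coloured by complex, with a black bar at each complex's median. Dotted lines mark the study's limits of 1 and -1. All points lie between -0.50 and 0.37.

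Without MUTYH the 74 genes had a median log2 fold change of 0.02, and 50 were higher, against 53.0% of all genes tested. The medians by complex were 0.04 (I), -0.05 (II), 0.06 (III), -0.01 (IV) and 0.03 (V). The lowest value was that of NDUFV2, at -0.50 ± 0.44 (SE), and the highest that of NDUFS4, an accessory subunit needed for assembly of the NADH-binding module, at 0.24 ± 0.37. SDHC and ATP5MC1 were both at -0.21, COX6C at -0.12 and UQCRC2, a core protein of complex III, at -0.10, while ATP5F1E, the epsilon subunit, was at 0.18, COX8A at 0.13, UQCRQ at 0.10 and SDHD at -0.02. By edgeR every adjusted p rounded to 1.00. The median was -0.12 without WT clone 11 and 0.21 without WT clone 2. Both MUTYH-/ libraries lay above both WT libraries for 7 genes and below for 1, NDUFB9, where the shares over all genes were 11.3% and 10.4%.

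Without OGG1 the median was 0.11 and 59 of 74 genes were higher, against 52.6% of all genes. Complex IV had the highest median, 0.17, with all 10 genes above 0 (COX4I1 lowest at 0.09, COX8A highest at 0.26), followed by complex III at 0.12, complex I at 0.11 and complex V at 0.09, while complex II was at -0.06. The single highest value was that of NDUFA1, at 0.31 ± 0.35, and UQCR10 was at 0.29, ATP5F1E at 0.22 and SDHA at 0.11. SDHC was at -0.20, UQCRC1 at -0.06 and ATP5F1D at -0.06. NDUFC2 (0.19 ± 0.17) and NDUFB7 (0.20 ± 0.19), both accessory subunits of complex I, were among the genes with the smallest P, with an adjusted p of 0.999 by edgeR. The direction hung on which clones were used, since the median was 0.36 without OGG1-/ clone 1 and -0.21 without OGG1-/ clone 22. Both OGG1-/ libraries lay above both WT libraries for COX6A1, NDUFB8, NDUFC2 and SDHA and below for NDUFA13, against 12.7% and 12.3% of all genes.

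In the DKO the median was 0.00, with 38 of 74 genes higher against 50.2% of all genes, and medians of -0.02 (I), -0.14 (II), 0.05 (III), 0.07 (IV) and 0.05 (V). Among the smallest P were those of NDUFA9, an accessory subunit near the quinone site of complex I, at -0.37 ± 0.22, and UQCRC1 at -0.20 ± 0.14, each with an adjusted p of 1.00 by edgeR. ATP5F1E was highest at 0.29, with NDUFA3 at 0.22, UQCRQ and COX7C at 0.13, SDHA at -0.07, SDHC at -0.25, COX6C at -0.01 and ATP5F1B at -0.06. The median was -0.27 without DKO clone 14 and 0.23 without DKO clone 4. Both DKO libraries lay above both WT libraries for COX6A1 and NDUFB9 and below for NDUFA11, NDUFA9, SDHA and UQCRC1, against 13.5% and 12.5% of all genes. Against OGG1-/ the DKO had a median of -0.09 with 10 genes higher, against MUTYH-/ -0.04 with 30 higher, and OGG1-/ against MUTYH-/ had 0.05 with 56 higher. The interaction of both losses had a median of -0.12, with 18 genes above 0. Single libraries turned these directions: DKO against OGG1-/ had a median of 0.20 with 60 genes higher without OGG1-/ clone 22 and 0.12 with 59 without DKO clone 4, and DKO against MUTYH-/ 0.20 without DKO clone 4 and 0.11 without MUTYH-/ clone 8. OGG1-/ against MUTYH-/ had -0.23 without OGG1-/ clone 22 and -0.04 without MUTYH-/ clone 7. The interaction was above 0 without WT clone 11, MUTYH-/ clone 8, OGG1-/ clone 22 or DKO clone 4, at 0.04 to 0.19. These comparisons share libraries with each other and are not independent.

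SDHC, lowest of complex II in all 3 comparisons with WT, was read against WT clones that lay far apart. SDHC (GRCh38 chromosome 1, 161314381 to 161363206, plus strand) had 72.5 CPM in WT clone 11 and 127 in WT clone 2, with 70.7 and 102 in MUTYH-/ clones 7 and 8, 70.1 and 104 in OGG1-/ clones 1 and 22, then 65.5 in DKO clone 4 and 103.1 in DKO clone 14. WT clone 2 stood above all knockouts and WT clone 11 lay inside their range. The gene lies on the long arm of chromosome 1, where the median of 676 tested genes was 0.30 log2 CPM higher in WT clone 2 than in WT clone 11, against -0.02 for 899 genes of the short arm. Between the clones of the knockouts the long arm differed by 0.02 to 0.04. The part of the chromosome arm in the values of SDHC was not tested. Its difference between WT clones (0.81) was the widest upwards of the 74 genes.

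The main variation of these genes ran between clones of the same genotype, with 1 library each, so that clone and library cannot be told apart. In WT clone 2, MUTYH-/ clone 8, OGG1-/ clone 22 and DKO clone 14 most respiratory chain genes read higher than in the other clone of that genotype. The median difference was 0.33 log2 CPM in WT with 69 of 74 genes higher, 0.27 in MUTYH-/ with 62, 0.57 in OGG1-/ with 66 and 0.48 in DKO with 67, whereas the median over all genes tested was within 0.02 of 0 in each pair. These 4 clones also lay together on the first principal component of the genes outside the set (31.1% of variance over 17807 genes), from which their order in each pair was taken. The pattern is a description of 8 libraries, since the pairs were formed from the data.

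**Figure D2:**
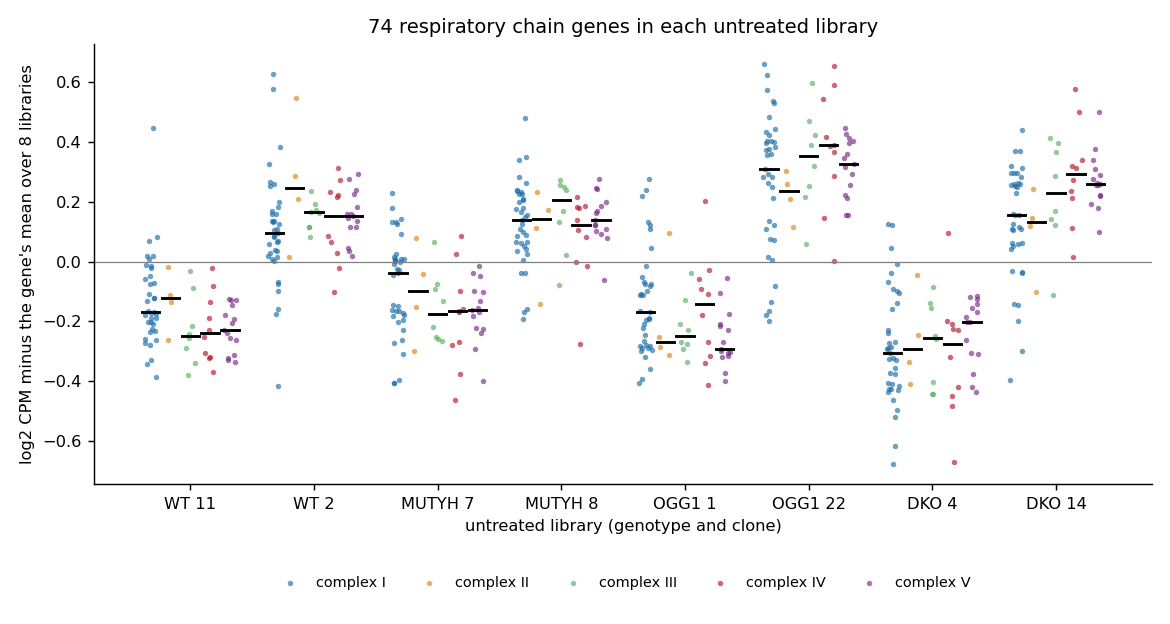
Log2 CPM of each of the 74 genes relative to its own mean over the 8 untreated libraries, 1 point per gene, coloured by complex, with a black bar at each complex's median. All 5 medians are below 0 in WT 11, MUTYH 7, OGG1 1 and DKO 4 and above 0 in WT 2, MUTYH 8, OGG1 22 and DKO 14.

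Of the 74 genes, 59 were higher in these clones in all 4 genotypes and 1, COX6A1, was lower in all 4, against 22.9% and 23.9% of all genes tested. Another 14 genes differed in direction between genotypes. Summed over the 74 genes, levels were 6732 CPM in WT clone 11 and 8426 in clone 2, 7099 and 8193 in MUTYH-/ clones 7 and 8, 6683 and 9174 in OGG1-/ clones 1 and 22, then 6520 in DKO clone 4 and 8693 in DKO clone 14. The lowest of the latter clones in each pair, 8193, was above the highest of the former, 7099, so the groups did not overlap. Within every genotype the gap between its clones was wider than the gap between any 2 genotypes' mean sums.

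All 5 complexes took part. In complex V all 15 genes were higher in all 4 genotypes, in complex III 6 of 8, in complex IV 8 of 10, in complex II 3 of 4 and in complex I 27 of 37. Medians over the genes of a complex ranged from 0.23 (I) to 0.41 (IV) in WT, from 0.21 (I) to 0.38 (III) in MUTYH-/, from 0.48 (I) to 0.60 (V) in OGG1-/ and from 0.42 (II) to 0.57 (IV) in DKO. Complex I had the lowest median in the first 3 of these.

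**Figure D3:**
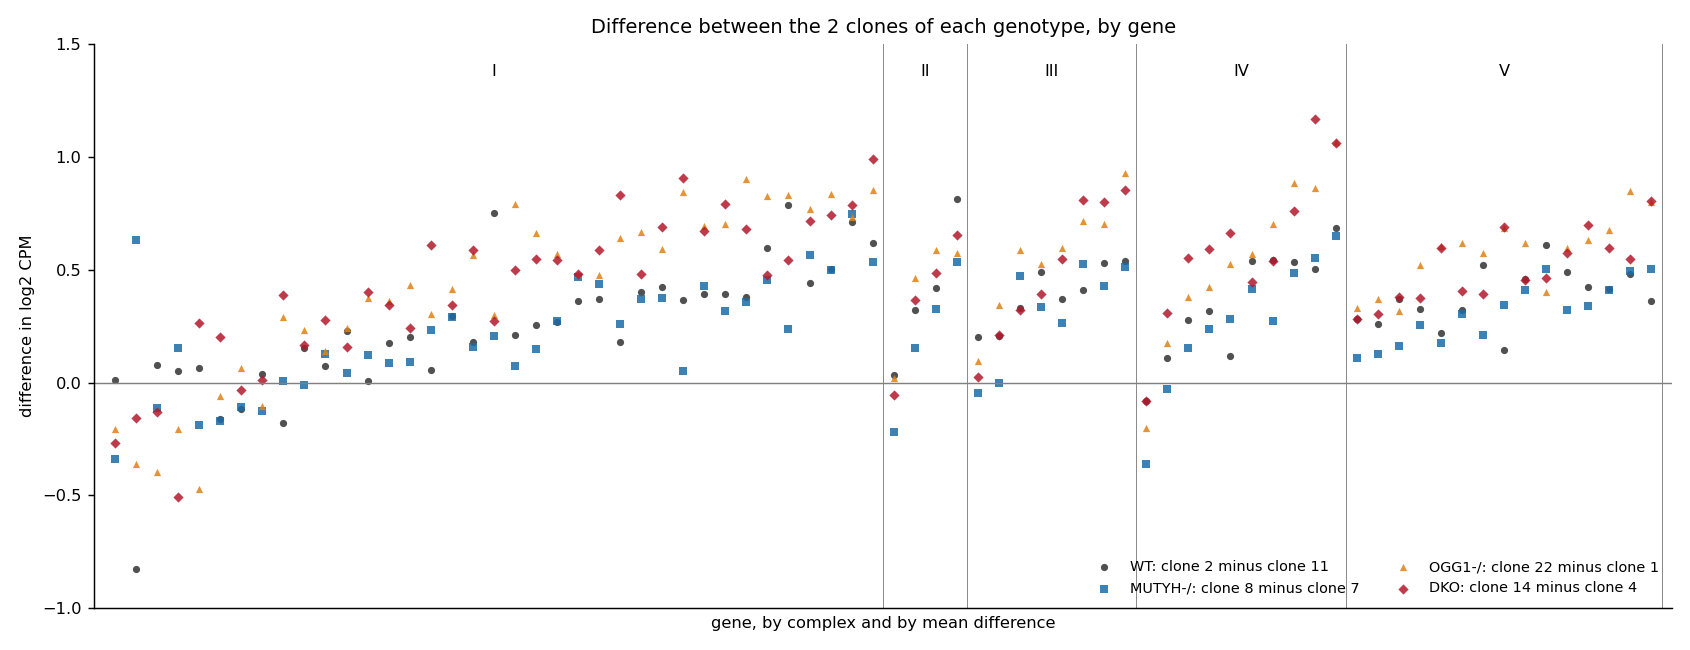
Difference in log2 CPM between the clones of each genotype for each of the 74 genes, ordered within complexes I to V by the mean of the 4 differences. Points lie above 0 in all 4 genotypes for 59 genes, and all points of complex V lie above 0.

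COX7C (chromosome 5, 86617928 to 86620962, plus strand) had the widest spread over the untreated libraries (SD 0.49 log2 CPM, n = 8). It had 78.2 and 126 CPM in WT clones 11 and 2, 73.3 and 115 in MUTYH-/ clones 7 and 8, 76.0 and 159 in OGG1-/ clones 1 and 22, then 72.3 in DKO clone 4 and 151 in DKO clone 14. The lower 4 values lay within 72.3 and 78.2 whatever the genotype, and the differences were 0.68, 0.65, 1.06 and 1.06 log2 CPM with counting errors of 0.04 to 0.05. COX6C, also of complex IV, was the only other gene with a difference over 1 (27.3 CPM in DKO clone 4 and 61.4 in DKO clone 14).

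NDUFB3, an accessory subunit in the membrane arm (chromosome 2, 201071433 to 201085750, plus strand), varied most in complex I (SD 0.43), with 27.1 and 41.7 CPM in WT clones 11 and 2, 25.7 and 37.3 in MUTYH-/ clones 7 and 8, 26.3 and 47.5 in OGG1-/ clones 1 and 22, then 20.0 in DKO clone 4 and 39.8 in DKO clone 14. UQCR10, a small subunit of complex III (chromosome 22, 29767369 to 29770413, plus strand), had an SD of 0.40 and differences of 0.54, 0.51, 0.93 and 0.85. NDUFB4 was the most even across genotypes among the wide ones, at 0.71, 0.75, 0.73 and 0.79. In complex V the widest was ATP5F1E, with an SD of 0.36 and 73.1, 78.5, 70.8 and 74.1 CPM in the lower clones against 94.0, 111, 123 and 130 in the higher, and ATP5PF differed by 0.48, 0.49, 0.85 and 0.55. NDUFB4, ATP5PF, COX6C and NDUFV1 are named after their values were seen.

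The groups of subunits within a complex gave the following values, which were not tested against each other. The 7 core subunits of complex I had medians of 0.07, 0.12, 0.30 and 0.27 in WT, MUTYH-/, OGG1-/ and DKO, and the 30 accessory subunits 0.26, 0.27, 0.57 and 0.52, with median transcript lengths of 1060 and 660 nt. NDUFV1, the core subunit that binds NADH (chromosome 11, 67605653 to 67612554, plus strand), had 254 and 255 CPM in the WT clones and was lower in MUTYH-/ clone 8 (221 against 279), OGG1-/ clone 22 (238 against 275) and DKO clone 14 (228 against 275). In complex III, UQCRC1 had 164 to 204 CPM over all 8 libraries (SD 0.10 log2 CPM), whereas UQCRFS1, the Rieske iron-sulfur subunit, differed between clones by 0.49, 0.33, 0.53 and 0.39. SDHB, the iron-sulfur subunit of complex II, differed by 0.42, 0.33, 0.59 and 0.48. Both are named after their values were seen. In complex V the 5 subunits of the F1 head had medians of 0.32, 0.21, 0.57 and 0.39 and the other 10 genes 0.42, 0.34, 0.61 and 0.56, with median lengths of 1759 and 672.5 nt. COX6A1 (chromosome 12, 120438090 to 120440737, plus strand) had 104 and 98.4 CPM in WT clones 11 and 2, 112 and 87.2 in MUTYH-/ clones 7 and 8, 122 and 106 in OGG1-/ clones 1 and 22, then 113 in DKO clone 4 and 107 in DKO clone 14, and lies beside a gene on the same strand that shares 32.6% of its exon length. Its differences were -0.08, -0.36, -0.20 and -0.08, each with a counting error of 0.04, which leaves the direction in WT and DKO uncertain.

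Short transcripts read higher in the same clones across all protein-coding genes. Among tested protein-coding genes with a median coding transcript of up to 750 nt (417 genes), the medians were 0.22, 0.22, 0.48 and 0.40 in WT, MUTYH-/, OGG1-/ and DKO. In the 5902 genes over 3000 nt they were -0.05, 0.00, -0.11 and -0.03. Respiratory chain transcripts were short, with a median of 687 nt against 2716 nt over 13366 protein-coding genes. The 41 respiratory chain genes of up to 750 nt had medians of 0.37, 0.29, 0.57 and 0.55, and the 13 of 1500 to 3000 nt had 0.23, 0.13, 0.30 and 0.28, where all 5090 protein-coding genes of that length had 0.01, -0.01, 0.03 and 0.00. Within each length class the median of the respiratory chain genes was thus above that of all genes of the class, and it was also above 0 in the 4 genes over 3000 nt. Across the 74 genes, Spearman's rho of length with the difference was -0.17, -0.31, -0.21 and -0.23, and across the 13366 protein-coding genes it was -0.17, -0.04, -0.25 and -0.15 in WT, MUTYH-/, OGG1-/ and DKO, a weak relation, near 0 in MUTYH-/ for all genes, among genes that share libraries. The part of length in these differences was not tested.

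**Figure D4:**
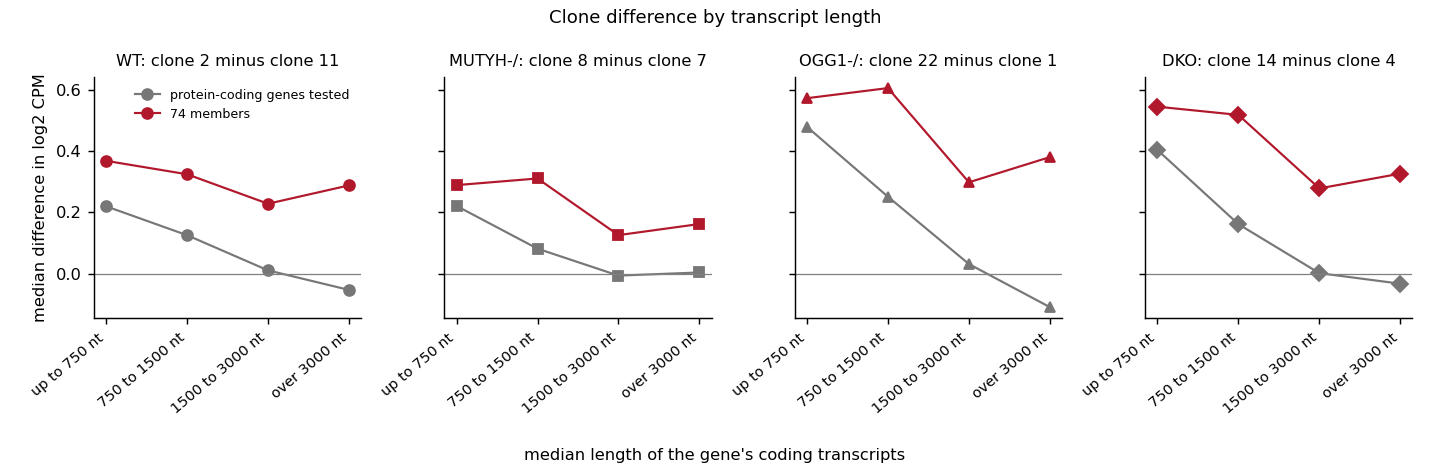
Median difference in log2 CPM between the clones of each genotype in 4 classes of transcript length, for all tested protein-coding genes (grey) and for the 74 respiratory chain genes (red). The grey points fall to near or below 0 with length in all 4 genotypes, and the red points lie above them in every class.

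Other gene groups gave a scale for these values. Subunits and close relatives left out by the choice of symbols, such as CYCS and COX7A2L, had 13 tested genes with medians of 0.38, 0.28, 0.60 and 0.58. The 81 cytosolic ribosomal protein genes, also short, had 0.31, 0.37, 0.74 and 0.61. They were higher in all 4 genotypes for 76 of 81 genes. The 47 assembly factors had lower medians, 0.16, 0.07, 0.26 and 0.28, with 26 genes higher in all 4 genotypes. The 13 tested regulators, including NRF1, TFAM and the PGC-1 coactivators, had 0.10, -0.01, -0.03 and 0.04.

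The 13 subunits encoded by mitochondrial DNA had medians below 0 between the same clones. None was higher in all 4 genotypes and 8 were lower in all 4, against 23.9% of all genes, and in WT 5 of 13 were higher in clone 2. Their medians were -0.21 in WT, -0.75 in MUTYH-/, -0.83 in OGG1-/ and -0.81 in DKO. Summed, they had 45305 CPM in WT clone 11 and 46080 in WT clone 2, 57466 and 33514 in MUTYH-/ clones 7 and 8, 59026 and 40221 in OGG1-/ clones 1 and 22, then 67653 in DKO clone 4 and 38880 in DKO clone 14. In WT the sum was slightly higher in clone 2, while in the knockouts the clone with more nuclear subunit transcripts had fewer mitochondrial ones. The ratio of mitochondrial to nuclear sums was 6.73 and 5.47 in the WT clones, 8.10 and 4.09 in MUTYH-/, 8.83 and 4.38 in OGG1-/ and 10.4 and 4.47 in DKO. In no genotype comparison did a mitochondrially encoded gene have P of at most 0.05 by edgeR.

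**Figure D5:**
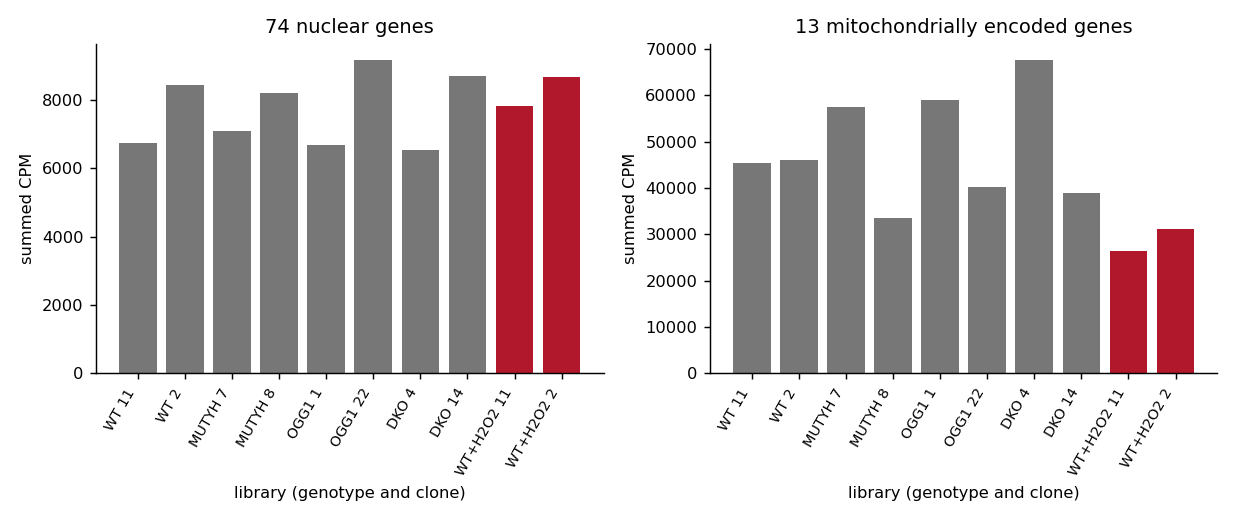
Summed CPM of the 74 nuclear genes (left) and of the 13 mitochondrially encoded genes (right) in each library, with untreated libraries in grey and H2O2-treated WT libraries in red, whose CPM come from the fit of the WT libraries. The treated bars are at 7829 and 8653 on the left, within the range of the untreated, and at 26419 and 31105 on the right, below all untreated bars.

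After H2O2 the 74 genes leaned upwards without a call in the unpaired test. The median log2 fold change was 0.14, with 58 of 74 higher against 8505 of the 16997 genes tested, and medians of 0.13 (I), 0.11 (II), 0.18 (III), 0.14 (IV) and 0.14 (V). By edgeR 0 genes had P of at most 0.05 (7.63% of all genes did, and 1.75% passed the study's rule). By DESeq2 it was 0 too, against 6.48% of all genes. Both treated libraries lay above both untreated libraries for 16 genes and below for 4 (COX6A1, NDUFA11, NDUFA13 and SDHA), against 20.8% and 20.5% of all genes. The same WT clones were used before and after treatment, and with the clone as a block 5 genes had P of at most 0.05, all higher, where 20.1% of all genes did, 2.78% passed the study's rule and 2.57% an adjusted p of at most 0.05. None of the 5 passed either of the latter. The share of respiratory chain genes called was thus below that of all genes.

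These 5 genes were named because the blocked fit called them. UQCRB, a complex III subunit that binds ubiquinone, had 98.4 and 131 CPM before and 144 and 142 after H2O2 in clones 11 and 2, a blocked log2 fold change of 0.33 ± 0.14 (adjusted p 0.197 by edgeR). NDUFS4 had 16.7 and 21.6 before and 24.4 and 25.0 after (0.38 ± 0.16, adjusted p 0.204 by edgeR). UQCRH was at 0.32, ATP5ME, the e subunit of ATP synthase, at 0.35 and NDUFA5 at 0.28. In the unpaired fit UQCRB (0.32, adjusted p 0.666) and NDUFS4 (0.37, adjusted p 0.667) had the smallest P by edgeR and COX6A1 followed, with 104 and 98.8 CPM before and 84.81 and 90.002 after (-0.22, adjusted p 0.677). SDHD was highest in complex II at 0.25, COX6C in complex IV at 0.22 and ATP5ME in complex V at 0.32. The lowest were NDUFV2 at -0.36, SDHA at -0.15, ATP5MC1 at -0.05 and UQCRC1 at 0.02.

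WT clone 11 carried most of this shift. The median difference between treated and untreated cells was 0.28 log2 CPM in clone 11 and 0.03 in clone 2. In both clones 42 of the 74 genes were higher and 6 lower, against 33.3% and 32.1% of all genes. COX7C, for example, went from 78.3 to 99.7 CPM in clone 11 and from 126 to 121 in clone 2. Without untreated WT clone 2 the median log2 fold change was 0.33, and without untreated WT clone 11 it was -0.015. Each of these fits sets both treated clones against 1 untreated clone, so the difference between clones enters it together with treatment. In clone 11 the treatment difference also followed length, at 0.24 for protein-coding genes of up to 750 nt and 0.02 for those over 3000 nt, against 0.04 and 0.03 in clone 2, and its part was not tested. Treated clones differed by 0.14 (clone 2 against clone 11), where untreated ones differed by 0.33.

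The mitochondrially encoded subunits fell after H2O2 in the blocked fit. Their summed level went from 45370 to 26419 CPM in clone 11 and from 46273 to 31105 in clone 2. With the clone as a block, which leaves 1 residual degree of freedom, all 13 had P of at most 0.05, where 20.1% of all genes did. Of the 13, 10 had an adjusted p of at most 0.05 (2.57% of all genes), and the median log2 fold change was -0.65. In the unpaired fit 10 of 13 had P of at most 0.05 (7.63% of all genes), none after adjustment. MT-CO1, the catalytic subunit of complex IV, fell by 0.87 ± 0.13 on the log2 scale (adjusted p 0.00583 by edgeR, blocked). MT-ND6 of complex I, encoded on the opposite strand to the rest, fell by 0.78 ± 0.13 (adjusted p 0.00873 by edgeR, blocked). MT-ND1, MT-ND2 and MT-ND3 were the 3 that missed an adjusted p of 0.05. All 13 were lower in both clones, against 32.1% of all genes, where 42 of 74 nuclear subunit genes were higher in both. Between the untreated clones of a genotype the medians of these 13 were -0.21 in WT, -0.75 in MUTYH-/, -0.83 in OGG1-/ and -0.81 in DKO. The blocked fit holds WT libraries only, so its P-values do not cover the spread between knockout clones. With 1 library per clone and condition, treatment and library cannot be told apart here.

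Calls among related genes are given at an unadjusted P of at most 0.05, which 7.63% of all genes passed after H2O2 in the unpaired fit and 20.1% with the block. Among subunits and relatives outside the set, COX6B2, the testis form of subunit 6B, passed the study's rule after H2O2, at -1.30 ± 0.49 (adjusted p 0.638 by edgeR) on 41 counts or fewer, and CYCS, cytochrome c, was at 0.44 ± 0.17 (adjusted p 0.638 by edgeR) with 5336 and 7122 counts before and 8279 and 8500 after. With the block 4 of these 13 were higher and 1 lower. Of the 47 assembly factors, 2 were higher (COA7 and COX19) and 1 lower (COX20) after H2O2, and 7 and 1 with the block, where COX20, which helps to mature MT-CO2, passed the study's rule at -1.01 ± 0.33 on 22 to 59 counts. COX20 was also lower in OGG1-/ (-0.82 ± 0.30) and in DKO (-0.99 ± 0.30) against WT at the unadjusted threshold, with adjusted p of 0.999 and 1.00 by edgeR. It also lies on the long arm of chromosome 1, and its counts in WT clones 11 and 2 were 57 and 59. NDUFAF7 was higher in OGG1-/ and DKO than in MUTYH-/ (0.40 and 0.42). COX20 and NDUFAF7 were each the only assembly factor of 47 called in these genotype comparisons, where 2.53% to 3.43% of all genes were called. Of 13 regulators, TFAM, which packages mitochondrial DNA, and the helicase TWNK were higher after H2O2 (0.33 and 0.39), joined by TFB2M with the block. None of these had an adjusted p of at most 0.05 by edgeR.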

How the data were processed

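RNA of 10 HAP1 libraries was sequenced on the DNBseq platform. Per the labels and methods, the authors aligned reads to GRCh38 with HISAT2 2.2.1, counted them over Ensembl genes with Rsubread and deposited raw counts per gene symbol in 2 tables, 1 for genotypes and 1 for treatment, whose WT columns were identical. Whether counting used strand is not given in the sources used here, and reads of overlapping genes and copies may be split or lost.

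Counts were fitted with edgeR 4.0.16 in R 4.3.3 (TMM scaling, filterByExpr, quasi-likelihood test with Benjamini-Hochberg adjustment), with the 8 untreated libraries in 1 fit with 4 residual degrees of freedom and the 4 WT libraries in another with 2. DESeq2 1.42.0 and the settings named in the closing section were alternatives. The study's call was P of at most 0.05 with a log2 fold change beyond 1. Log2 CPM used a prior count of 2. Genes were placed by GENCODE v44 on GRCh38, matched by symbol for all 74 genes and 85.9% of the genes tested.

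The WT libraries before and after treatment came from the same clones. Their clone difference correlated across 16997 genes (Pearson r 0.68), so the blocked values are printed. The genotypes share no clone numbers.

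Genes and lists were chosen with earlier results of these data known. Named genes were those past a call, those with the highest and lowest fold change per complex in each comparison with WT, the highest and lowest levels and largest SD per complex, the 3 smallest P per comparison with WT, the c subunit genes, ATP5PO, and list genes past a call. Others are named as chosen after seeing their values. Some results that this rule would name are not reported here.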

Additional observations from a re-analysis of the deposited data

How the results depend on the processing

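Of the counts of respiratory chain genes with P of at most 0.05, 111 alternative values remained at the reported count and 12 did not. The latter arose with a block, or on leaving out a library. With the first-component division of clones as a block (3 residual degrees of freedom), 1 gene was called in DKO against WT, 1 in DKO against OGG1-/ (NDUFS7), 2 in DKO against MUTYH-/ (NDUFA3 and NDUFA6), 1 in OGG1-/ against MUTYH-/ (ATP5ME) and 1 for the interaction (NDUFA6), none with an adjusted p of at most 0.05 by edgeR. Of all genes tested, this block called 7.32%, 7.58%, 8.47%, 7.1% and 7.02% in these comparisons, in the same order. That division was found in these data. With the clone as a replicate block, 5 were called after H2O2, where 20.1% of all genes were. Leaving out each replicate in turn gave 0 to 1 in MUTYH-/, OGG1-/ and DKO against WT (1 in each without WT clone 11), 0 to 1 in DKO against OGG1-/ (NDUFS7 without OGG1-/ clone 1 and NDUFA9 without clone 22) and 0 to 18 after H2O2. The lone library left is then assumed to vary like the other groups, so no conclusion is drawn from these counts. In these fits the share of the 74 genes called was below that of all genes tested, with 1 exception. After H2O2 without untreated WT clone 2, the share of the 74 genes was above that of all genes.

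The median over the 74 genes after H2O2 ranged from -0.015 to 0.33 on leaving out a library. Medians of the genotype comparisons changed sign with the library left out, from -0.12 to 0.21 in MUTYH-/, -0.21 to 0.36 in OGG1-/ and -0.27 to 0.23 in DKO against WT, -0.38 to 0.20 in DKO against OGG1-/, -0.31 to 0.20 in DKO against MUTYH-/, -0.23 to 0.30 in OGG1-/ against MUTYH-/ and -0.39 to 0.19 for the interaction. With all libraries kept, DESeq2, its size factors, no filter or 10 counts in every library, leaving mitochondrial genes out of library sizes, the newer edgeR test, all 10 libraries together, fits of the compared groups alone and both blocks gave 63 medians that lay within 0.021 of the reported ones, of which 5 changed sign, all in DKO against WT, where the reported median was 0.003 and these were -0.0026 to -0.011. Counting NDUFA4 in complex IV gave 0.00 for complex IV in MUTYH-/ and 0.17 in OGG1-/. NDUFV2, NDUFA7 and NDUFA13, with at most 106 counts, allow no fine comparison.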
